A study of Mus musculus with 7 samples.

Results

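The sarcomere carries a small set of proteins that sense or answer mechanical strain, and the transcripts of 6 of them were followed here across 7 hearts: Ankrd1, Xirp1, Csrp3, Fhl1, Fhl2 and Tcap. These genes were picked by name, with their knockout and wild-type values in these arrays already known. Every probe set (a group of short probes read as 1 value) that the platform table assigns to exactly 1 of these genes was taken, which gave 7 probe sets of 22626 that are not controls. The samples were left ventricles of male mice aged 21 months, 1 MOE430A oligonucleotide array per mouse. The first group held 3 mice labelled eNOS knockout (-/-), numbered M4, M10 and M140, which by their label lack endothelial nitric oxide synthase, the enzyme encoded by Nos3. The second held 4 mice labelled wild type (+/+), numbered M23, M125, M128 and M158. A keyword names exercise, but strain, targeting allele and exercise state of the mice were not found in the labels. The labels describe heart dysfunction of old knockout males as the reason for the comparison.

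In heart muscle, the Z-disc anchors titin, the giant spring of the sarcomere, and links it to actin. Ankyrin repeat and LIM domain proteins sit on titin at the I-band or Z-disc, and several of them also move to the nucleus, where they act on transcription. Ankrd1 (cardiac ankyrin repeat protein) is known to be induced by stretch and pressure load. Xirp1 (Xin) binds actin filaments at the intercalated disc. Csrp3 (muscle LIM protein) and Tcap (telethonin, the cap of titin's Z-disc end) form a stretch-sensing complex, and mice without Csrp3 develop dilated cardiomyopathy. Fhl1 and Fhl2 are LIM proteins that bind the elastic region of titin; Fhl2 also recruits metabolic enzymes there.

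The sequences before the start sites of Ankrd1, Fhl1 and Fhl2 are shown because Ankrd1 had the largest knockout and wild-type difference of the members, while Fhl1 and Fhl2 are relatives that read differently. They are the 250 bases upstream of the RefSeq start sites in GRCm38.p6, written 5′ to 3′ on the gene's strand. Capitals mark matches, on either strand, to AGATAA (known from GATA factors), CATTCC (the MCAT element of TEAD factors), the CArG box of serum response factor or the MEF2 box.
Ankrd1, chr19:36119845-36120094, minus strand: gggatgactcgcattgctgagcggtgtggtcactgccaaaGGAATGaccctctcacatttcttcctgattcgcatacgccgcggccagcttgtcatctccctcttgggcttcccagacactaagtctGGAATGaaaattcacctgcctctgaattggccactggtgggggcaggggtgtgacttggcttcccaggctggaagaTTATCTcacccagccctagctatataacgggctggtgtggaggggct
Fhl1, first start site, chrX:56779433-56779682, plus strand: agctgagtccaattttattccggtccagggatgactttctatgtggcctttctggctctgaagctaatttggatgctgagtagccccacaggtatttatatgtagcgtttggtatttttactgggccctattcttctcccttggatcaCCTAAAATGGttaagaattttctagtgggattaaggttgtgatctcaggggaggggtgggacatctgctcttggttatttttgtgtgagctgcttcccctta
Fhl2, first start site, chr1:43196762-43197011, minus strand: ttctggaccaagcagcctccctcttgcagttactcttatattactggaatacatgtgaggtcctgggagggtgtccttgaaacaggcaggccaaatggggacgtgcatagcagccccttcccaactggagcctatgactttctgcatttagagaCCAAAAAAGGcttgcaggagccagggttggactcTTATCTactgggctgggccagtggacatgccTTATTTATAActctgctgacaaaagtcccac
Fhl2, second start site, chr1:43163962-43164211, minus strand: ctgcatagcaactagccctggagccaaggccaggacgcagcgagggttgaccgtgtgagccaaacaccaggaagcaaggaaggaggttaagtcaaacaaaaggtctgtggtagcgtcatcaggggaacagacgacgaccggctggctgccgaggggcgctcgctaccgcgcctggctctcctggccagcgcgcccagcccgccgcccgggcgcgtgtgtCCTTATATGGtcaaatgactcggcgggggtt
Ankrd1 held 2 CATTCC matches, which begin 210 and 123 bases before the start site, and 1 AGATAA match at 47 bases. Fhl1 held 1 CArG box at 102 bases. The first window of Fhl2 held a CArG box at 96 bases, AGATAA at 62 and a MEF2 box at 31, and the second a CArG box at 31. No match overlapped another. The search covered 300 bases per window, and CATTCC was present in 14.7%, AGATAA in 11.2%, the CArG box in 1.63% and the MEF2 box in 3.19% of all 32851 RefSeq windows of that length. The second window of Fhl1 and both windows of Csrp3, on chromosome 7, had 0 matches. RefSeq windows were matched for 4 of the 6 members; the others are Xirp1 on chromosome 9 and Tcap on chromosome 11. A match is a run of letters and was not tested as a binding site.

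The deposited values were intensities on a linear scale, with medians of 671 to 699 per array and an upper limit of 44145 to 45552 that 51 to 104 probe sets had reached. The number of arrays, 3 and 4, limits the precision. The ventricular transcripts Myl2, Myl3 and Myh6 were at the limit on all 7 arrays. The atrial transcript Myl7 read 17557 on knockout M10, 1207 on knockout M4 and 407 on knockout M140. On the wild-type arrays it read 16097 on M125, 2926 on M128, 399 on M158 and 356 on M23. The Nos3 probe set read 1135 to 1413 on knockout arrays and 791 to 1163 on wild-type arrays, so that the targeted transcript was not lower on the arrays labelled knockout (where this probe set lies relative to the disrupted part is not known here). Experiment sheets gave 4 hybridization days, each with 1 chip lot. Of the knockout arrays, M140 was hybridized on day 1 and both others on day 3; of the wild-type arrays, M128 was hybridized on day 1, M125 on day 2 and both others on day 4. Day and group cannot be told apart outside day 1. In whole ventricle, fewer cells of a type and less RNA per cell cannot be told apart.

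Of the 7 member probe sets, 5 had all 3 knockout values above all 4 wild-type values, and 0 had them below. They belong to Ankrd1, Xirp1, Csrp3 and Fhl1, whereas Fhl2 and Tcap overlapped between the groups. Over the 13836 probe sets tested, 4.97% lay apart with the knockout higher and 4.34% with it lower (9.3% in either direction), and 49.5% had a difference above 0. This contrast chose the members, so that the count is a description. Of all tested probe sets, 6.57% were higher and 5.25% lower (11.8% together) at an unadjusted p under 0.05 by limma. No probe set on the array, and hence no member, passed an adjusted p of 0.05 (limma with Benjamini-Hochberg adjustment: 0 of 13836, or 0%; 1636 at an unadjusted p under 0.05). All 7 member probe sets passed the filter on dim values. Differences below are on the log2(intensity + 16) scale with limma's standard error (SE, 3 knockout and 4 wild-type arrays). They describe the members and are not read as tests.

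**Figure D1:**
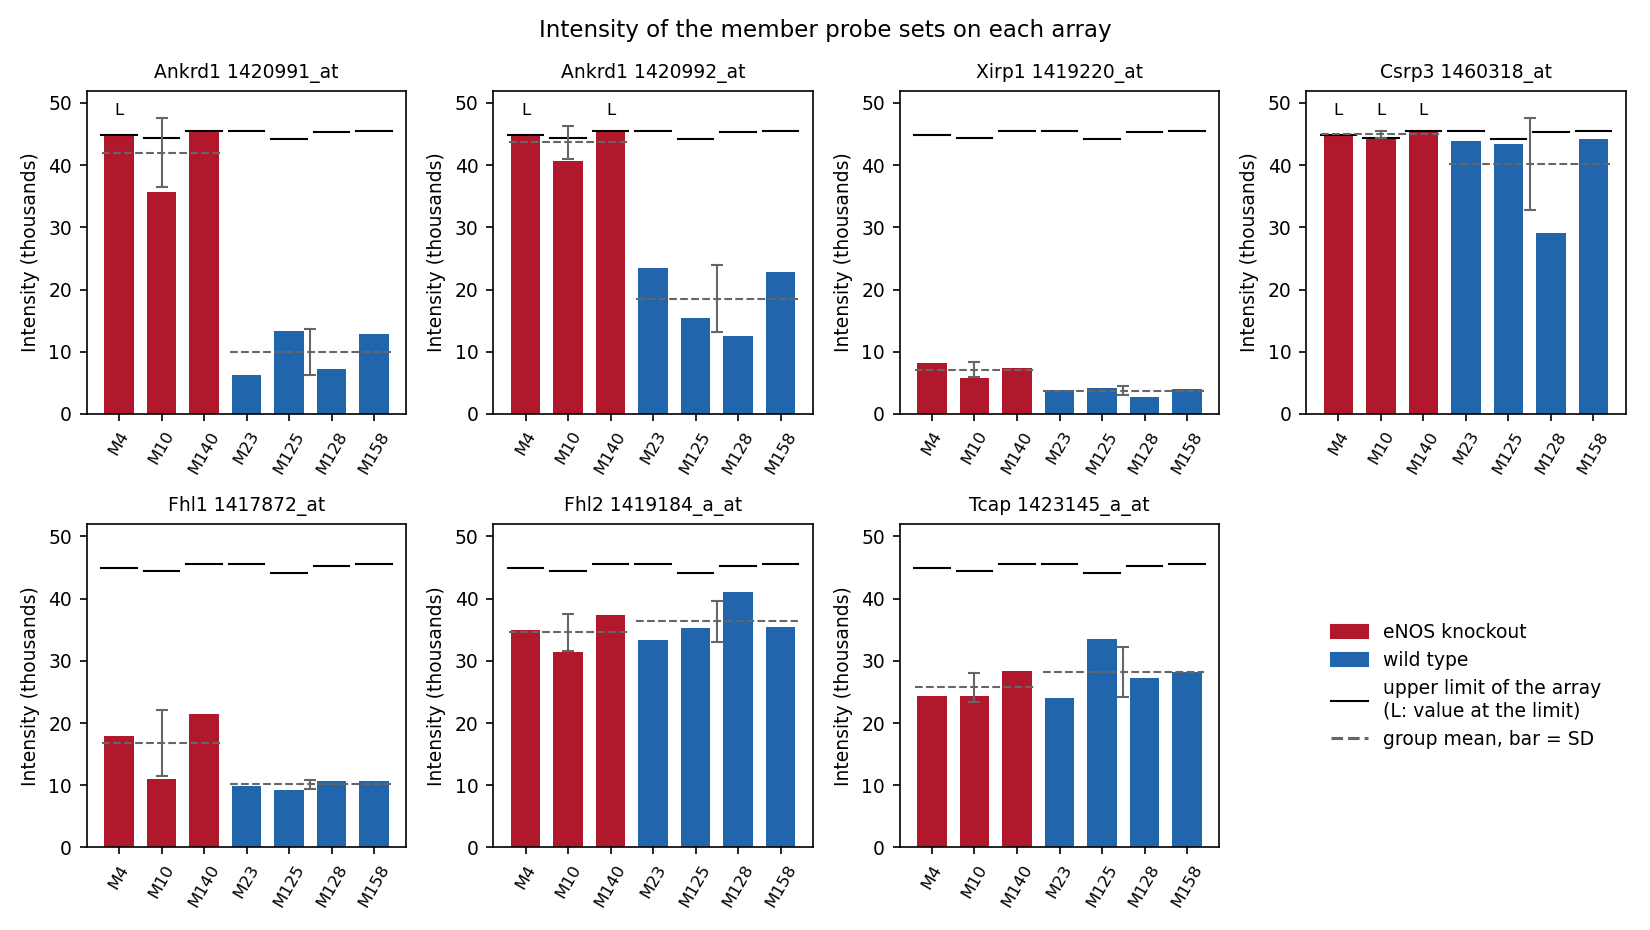
Deposited intensity (vertical axes, linear from 0, scaled as the axes state) of the 7 member probe sets on each array (horizontal axes), eNOS knockout at left and wild type at right. Black lines are each array's upper limit, L marks values at it, the first and second Ankrd1 probe sets lead the upper row, and dashed lines with bars are group means ± SD. Both Ankrd1 probe sets, Xirp1, Csrp3 and Fhl1 show no overlap between the groups, and Csrp3 is at the limit on all 3 knockout arrays.

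Ankrd1, the ankyrin repeat member, had the largest differences. Its first probe set read 44868.5 on M4, 35708 on M10 and 45512 on M140 of the knockout, against 6234 on M23, 13336.5 on M125, 7249 on M128 and 12891 on M158 of the wild type. Its lowest knockout array lay 2.68-fold above its highest wild-type array. Knockout arrays averaged 42029.6 ± 5484 (SD, n = 3) and wild-type arrays 9928 ± 3707 (SD, n = 4), and the log2 difference was 2.15 ± 0.28. The value of M4 was at the upper limit and that of M140 lay 0.061% below it, so that the difference is understated. Its second probe set read 44868.5, 40616 and 45540.1 on knockout M4, M10 and M140, with M4 and M140 at the limit, so that its difference is a lower bound too. The wild-type arrays M23, M125, M128 and M158 gave 23519, 15419.8, 12525 and 22739.5. The groups did not overlap, and the lowest knockout array was 1.73-fold above the highest wild-type array. Knockout arrays averaged 43675 ± 2670.3 (SD, n = 3) and wild-type arrays 18551 ± 5426 (SD, n = 4), and the log2 difference was at least 1.28, with an SE of 0.21 over values of which 2 were cut off by the limit.

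The wild-type arrays ranked differently on the 2 Ankrd1 probe sets. M23 gave the lowest wild-type value of the first probe set and the highest of the second. M23 also had the lowest ratio of the 5' to the 3' Gapdh control probe set, 0.098, followed by M158 at 0.340 and then by 0.521 to 0.777 on the other 5 arrays. According to its experiment sheet, M23 combines a first and a second processing. Both M23 and M158 are wild-type arrays of day 4, so that a low Gapdh ratio cannot be told apart from group and day. The part of this ratio or of the processing in the values of Ankrd1, the other members or the companion genes was not tested. Knockout M10 was the lowest knockout array on both probe sets, yet it was above every wild-type array on each.

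Xirp1, the actin-binding repeat member of the intercalated disc, read 8218 on M4, 5769 on M10 and 7365 on M140 of the knockout. On the wild-type arrays it read 3856 on M23, 4244 on M125, 2639 on M128 and 4016 on M158. No value was at the limit, and the lowest knockout array was 1.36-fold above the highest wild-type array. Knockout arrays averaged 7117 ± 1243 (SD, n = 3) and wild-type arrays 3689 ± 717 (SD, n = 4), and the log2 difference was 0.95 ± 0.20, or 1.94-fold. The wild-type arrays M23, M125 and M158 lay close together, and M128 lay below them.

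Among the LIM domain members, Csrp3 was so bright that the size of its difference cannot be read. It read 44868.5, 44424.5 and 45540.1 on knockout M4, M10 and M140, each exactly at the upper limit of its array. The wild-type arrays M23, M125, M128 and M158 gave 43860.5, 43433, 29071 and 44145, none of them at the limit. M23, M125 and M158 lay 1.61% to 3.71% below the limit of their array, while M128 stood at 64.2% of it. By the means of the log2 values, 15.46 for the knockout and 15.27 for the wild type, the knockout was 1.14-fold higher (log2 difference 0.18 ± 0.14). This is a lower bound only if wild-type values near the limit are not compressed, which was not tested. The lowest knockout array lay 1.006-fold above the highest wild-type array, while the limits of the 7 arrays ran from 44145 to 45552. The difference rested on M128, and without this array it was 1.03-fold (log2 0.04).

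Fhl1 read 17897 on M4, 10989 on M10 and 21455 on M140 of the knockout, against 9929.8 on M23, 9255 on M125, 10718 on M128 and 10645 on M158 of the wild type. The wild-type arrays were close to each other, with an SD of 6.78% of their mean, while the knockout arrays spread by 31.7%. Knockout arrays averaged 16780.4 ± 5321 (SD, n = 3) and wild-type arrays 10137 ± 687 (SD, n = 4), and the log2 difference was 0.67 ± 0.21. M4 and M140 were clearly above all wild-type arrays, but M10 was 1.03-fold above the highest of them. The log2 difference was 0.95 without M10, 0.60 without M4 and 0.47 without M140.

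Fibroblast markers spread widely among the knockout arrays as well. The summed intensity of the 8 fibroblast markers, all 8 on the array and none at 0, was 67893 on M4, 22606 on M10 and 96379 on M140 of the knockout, and 29136 to 45174 on the wild-type arrays. Postn, periostin of activated fibroblasts, read 21455 on M4, 1684 on M10 and 37003 on M140 of the knockout, and 2619 to 5504 on the wild-type arrays. The sum, Postn, Col1a1, Col1a2, Col3a1 and Tcf21 had the order of Fhl1 on the knockout arrays, whereas Dcn, Lum and Pdgfra did not. This order was not particular to Fhl1. Fhl2 had it too, as did both Ankrd1 probe sets, where M4 and M140 were at or near the upper limit. Its share over all tested genes was not counted. None of the 8 fibroblast markers had an unadjusted p under 0.05 by limma, and their part in the Fhl1 values was not tested. Among other cell types, 4 of 8 macrophage markers lay apart with the knockout higher (5.28% of all tested genes did), with summed levels of 23497 to 28234 in the knockout and 17974 to 24708 in the wild type. The summed levels of smooth muscle (14099 to 17199 in the knockout, 10061 to 16243 in the wild type), endothelial (19297 to 21949.6 in the knockout, 15927 to 20338 in the wild type) and atrial markers (6893 to 40519.8 in the knockout, 7419 to 48928 in the wild type) overlapped. So did those of 10 skeletal muscle markers, 17733 to 26874 in the knockout and 24991 to 40396 in the wild type. Most of that sum on every array was Ckm alone, with 12925.5 to 22162 in the knockout and 20144 to 35211 in the wild type. It is therefore mainly a reading of Ckm. The endothelial Vwf, von Willebrand factor, was the only 1 of 8 markers of its list to lie apart, with 4678, 5302 and 2950.2 on knockout M4, M10 and M140 and 1350 to 2792 on the wild-type arrays. The 4 red cell markers on the array summed to 5483 to 10599.5 in the knockout and 4113 to 4915 in the wild type. Both of the 2 tested, Alas2 and Hbb-b2, lay apart with the knockout higher (5.28% of all tested genes did). The other tested probe set of Hbb-b2 differed by -0.04. Of the 10 ventricular muscle markers, 7 were at the upper limit on 1 or more arrays. Their sum was 330035 to 337495 in the knockout and 318940 to 335401 in the wild type. Because of the limit, the content of heart muscle cells cannot be read from it. Of the 9 tested, 1 lay apart with the knockout higher (5.28% of all tested genes did). The part of all these cell types in the members' values was not tested.

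Fhl2 did not show the group difference of Fhl1, although its knockout arrays had the same order. It read 34971 on M4, 31409 on M10 and 37293 on M140 of the knockout, against 33404 on M23, 35263 on M125, 41131 on M128 and 35504 on M158 of the wild type. The highest value was that of wild-type M128 and the lowest that of knockout M10, and the groups overlapped. Knockout arrays averaged 34558 ± 2964 (SD, n = 3) and wild-type arrays 36325 ± 3339 (SD, n = 4), and the log2 difference was -0.07 ± 0.09. Tcap, the titin cap, overlapped as well. It read 24362, 24381 and 28412 on knockout M4, M10 and M140, against 23970.3, 33504, 27214 and 28137 on M23, M125, M128 and M158 of the wild type. Knockout arrays averaged 25718 ± 2333 (SD, n = 3) and wild-type arrays 28206 ± 3958 (SD, n = 4), and the log2 difference was -0.13 ± 0.12. Both genes were bright on every array and below the limit, although Fhl2 reached 90.8% of the limit on wild-type M128; whether values near the limit are compressed was not tested.

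**Figure D2:**
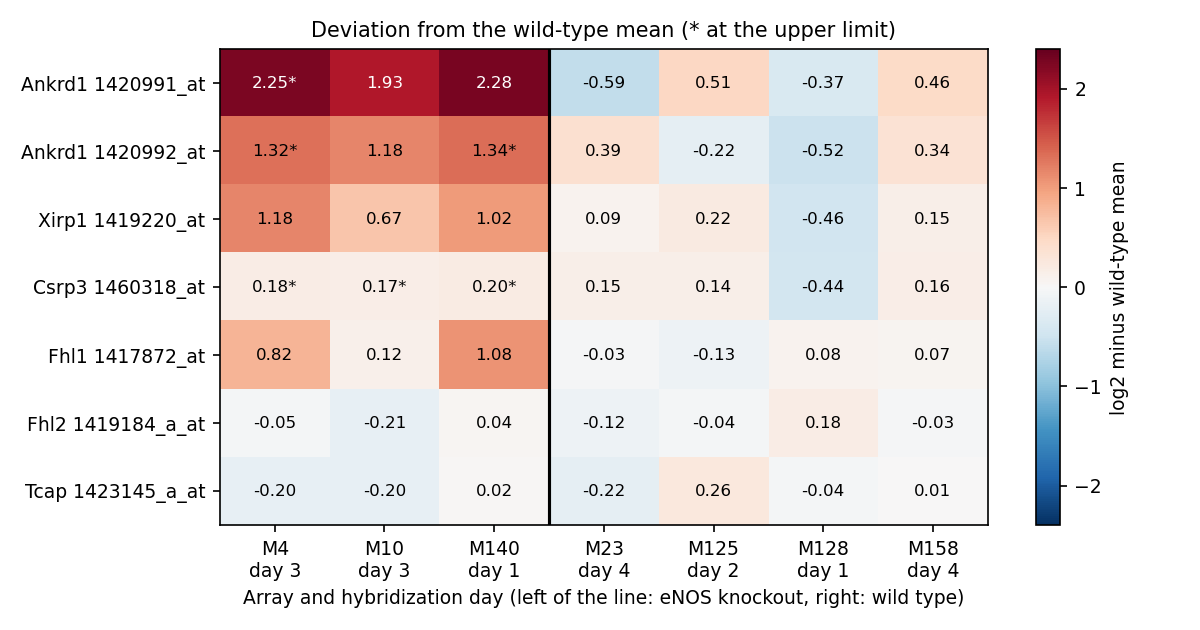
Log2 value of each member probe set (rows) on each array (columns, with hybridization day) minus its wild-type mean, eNOS knockout left of the line and wild type right of it; asterisks mark values at the upper limit. Ankrd1 and Xirp1 are above the wild-type mean on all 3 knockout arrays, Fhl1 is 0.12 above it on M10, and Fhl2 and Tcap lie within 0.26 of it on all 7 arrays.

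Array by array, knockout M10 gave the lowest knockout value on 6 of the 7 member probe sets, and knockout M140 the highest on 6. For Csrp3 and for M4 against M140 on the second Ankrd1 probe set this order is only that of the array limits, and for M4 against M140 on the first it is within 0.061% of the limit. Knockout M4 was the lowest for Tcap and the highest for Xirp1. Among the wild-type arrays, M128 was the lowest on 3 probe sets (the second of Ankrd1, Xirp1 and Csrp3) and the highest on 2 (Fhl1 and Fhl2). M10 was also the knockout array with most Myl7. Without M10 and wild-type M125, the other array with much Myl7, the log2 differences were 2.43 and 1.26 for the first and second Ankrd1 probe sets, 1.17 for Xirp1 and 0.91 for Fhl1. With the level of Myl7 as a covariate they were 2.15, 1.31, 0.97 and 0.71 in the same order.

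Day 1 was the single hybridization day with both groups, and there knockout M140 was set against wild-type M128. The log2 differences were 2.65 for the first and at least 1.86 for the second Ankrd1 probe set, 1.47 for Xirp1, 0.65 for Csrp3 and 1.0 for Fhl1. Fhl2 differed by -0.14 and Tcap by 0.062. The first 5 of these were larger than the differences over all arrays, and Tcap had the opposite sign. With 1 array per group there is no replicate check within the day, and M128 was the lowest wild-type array for Xirp1, Csrp3 and 1 Ankrd1 probe set. The Csrp3 difference is a lower bound only if its value on M128 is not compressed by the limit, which was not tested. Day as a fixed block gives the same values, since no other day holds both groups.

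**Figure D3:**
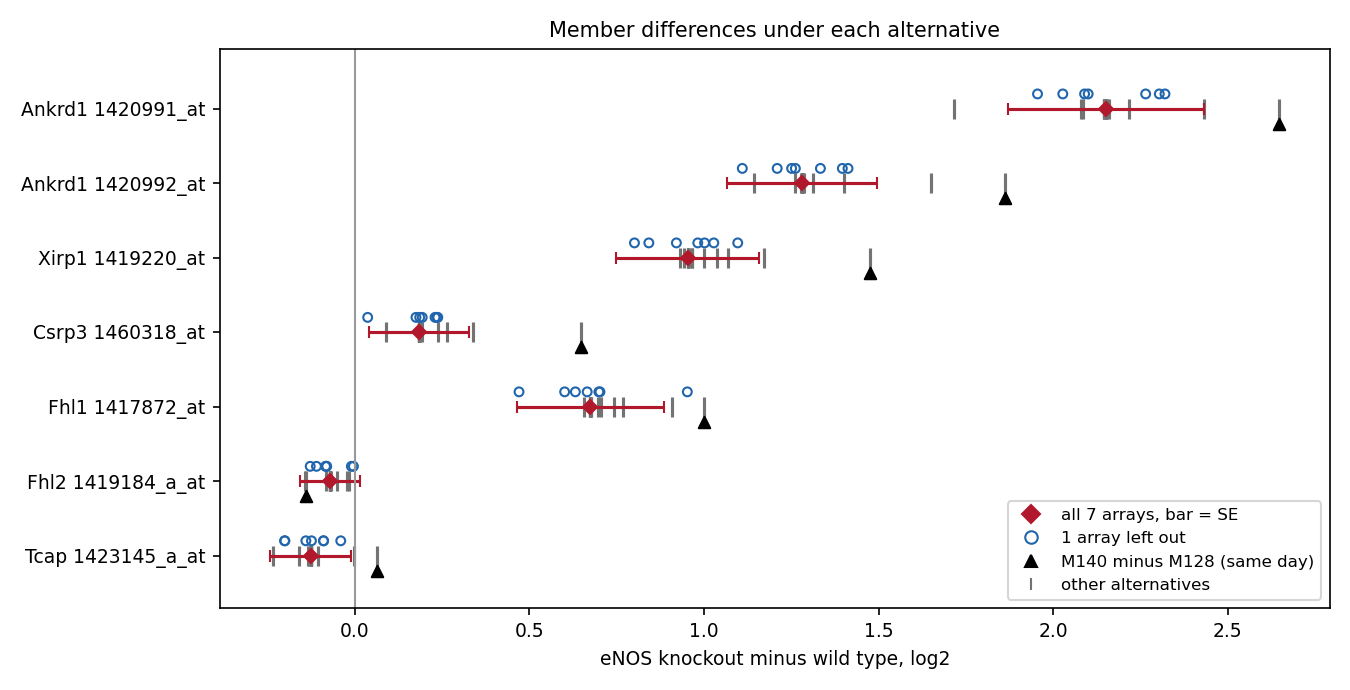
Log2 difference, eNOS knockout minus wild type (horizontal axis), of the 7 member probe sets. Red diamonds are all 7 arrays with SE bars, blue circles leave out 1 array each, black triangles are M140 minus M128 within day 1 and grey ticks the other alternatives. Ankrd1, Xirp1, Csrp3 and Fhl1 are above 0 in all of these alternatives, which leaving out arrays could not change because their groups do not overlap. Fhl2 is below 0 in all of them, and Tcap changes sign within day 1.

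Genes around the members were read from 6 lists of Z-disc, titin, LIM domain, costamere and load-sensitive genes. Of 75 listed genes 65 were on the array under 1 symbol and 60 were tested, each by its brightest tested probe set. Their median log2 difference was 0.16, against -0.003 over all 8869 tested genes, and 43 were above 0 and 17 below (49.4% of all tested genes were above). At an unadjusted p under 0.05 by limma, 14 were higher and 1 lower, against 6.74% higher and 5.4% lower (12.1% together) of all tested genes. The groups lay apart for 13 of the 60 with the knockout higher and for 0 with it lower, against 5.28% and 4.88% (10.2% together) of all tested genes. None of the 60 passed an adjusted p of 0.05 (0% of all genes did). The lists were chosen with earlier results of these data known, so that the median and these counts are a description. The 14 higher genes became 4 without knockout M4, 7 without knockout M140 and 9 without wild-type M23, and the 1 lower gene became 0 without M4 or M23 and 2 without knockout M10 or wild-type M125.

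**Figure D4:**
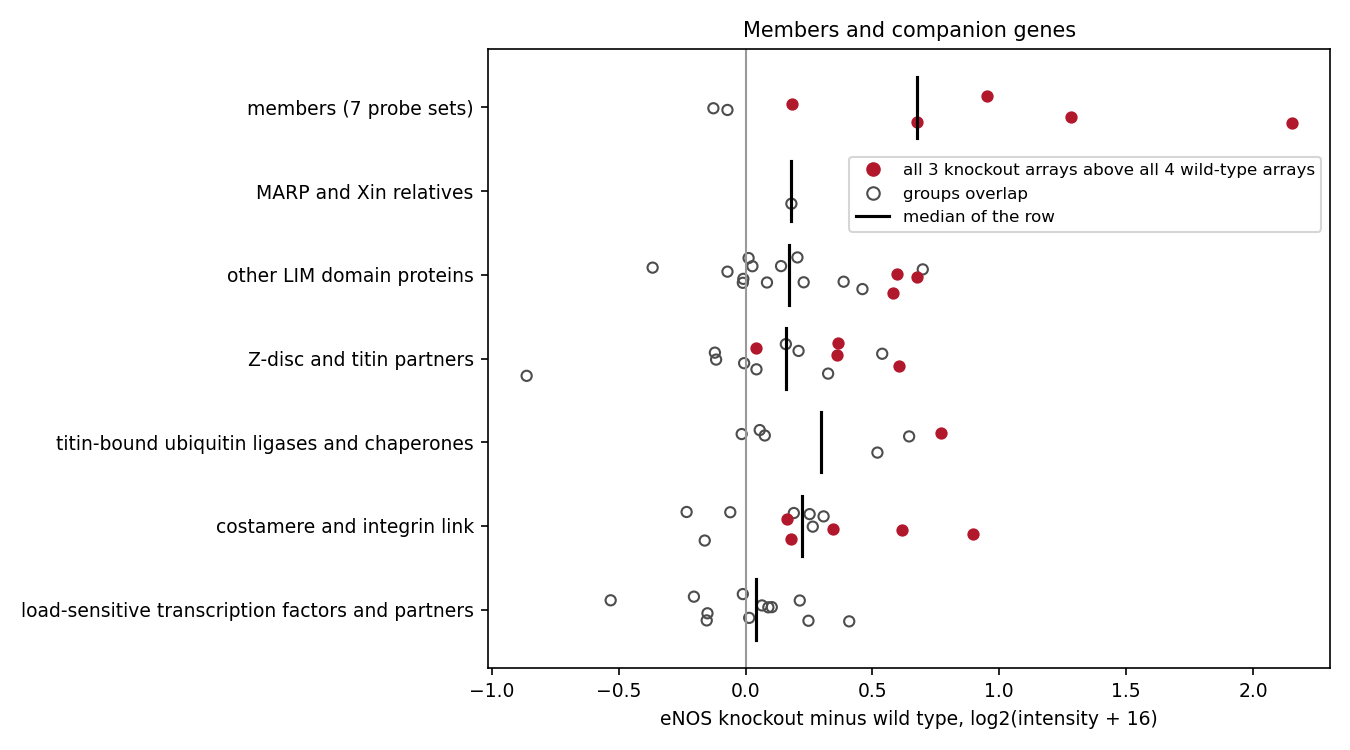
Log2 difference, eNOS knockout minus wild type (horizontal axis), of the 7 member probe sets and of each tested gene of the 6 companion lists (rows). Filled red points are those with all 3 knockout arrays above all 4 wild-type arrays, open points overlap, and black bars are row medians. The list medians lie between 0.04 and 0.30, below the members' 0.67, which the choice of members shaped.

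At that unadjusted threshold, 6 of the 16 tested other LIM domain proteins were higher and 0 lower (6.74% and 5.4% of all tested genes). Their median log2 difference was 0.17. The 6 became 2 without knockout M4 or M140 and 3 without wild-type M23. Pdlim3, a PDZ and LIM protein that binds alpha-actinin at the Z-disc, read 1244, 1379.9 and 1246 on knockout M4, M10 and M140, against 698, 1092, 801 and 675 on M23, M125, M128 and M158 of the wild type. The groups did not overlap, and the log2 difference was 0.67 ± 0.16 (limma adjusted p = 0.229). Zyx, zyxin of focal adhesions and stress fibres, differed by 0.58 ± 0.17 (limma adjusted p = 0.285), with its other probe set at 0.19. Lmcd1, a LIM and cysteine-rich protein of heart muscle, differed by 0.70 ± 0.25 with overlapping groups (limma adjusted p = 0.353), on a probe set of a kind that can bind related transcripts. Csrp2, a relative of Csrp3 found in smooth muscle, differed by 0.46 ± 0.18 with overlap, and the muscle LIM protein Fhl3 by -0.01 ± 0.06. The only relative of Ankrd1 and Xirp1 read was Ankrd2, the ankyrin repeat protein of skeletal muscle, at 0.18 ± 0.09 with overlap (limma adjusted p = 0.494). Fhl3 read 721 to 787 and Ankrd2 521 to 726 over the 7 arrays, close to the array medians of 671 to 699. Little can therefore be read from their small differences.

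Of the Z-disc and titin partners, 2 of 13 tested were higher by the same measure and 0 lower (6.74% and 5.4% of all tested genes). Their median was 0.16. The median was 0.04 without wild-type M23, and the count was 1 without M4, M140, M23 or M158. Actn2, the alpha-actinin that cross-links actin at the Z-disc, read 35382, 32408 and 31082 on knockout M4, M10 and M140. The wild-type arrays M23, M125, M128 and M158 gave 22350.0, 30130.2, 24417 and 26249. These groups lay apart, with a log2 difference of 0.36 ± 0.10 (limma adjusted p = 0.285). Flnc, the muscle filamin, differed by 0.33 ± 0.14 with overlap (limma adjusted p = 0.409), and Capzb, which caps actin at the Z-disc, by 0.36 ± 0.16 without overlap (limma adjusted p = 0.436). Of the titin-bound ligases and chaperones, 2 of 6 were higher (6.74% of all tested genes), with a median of 0.30. The count of 2 was 0 without knockout M4 and 1 without knockout M10. Trim54, a ubiquitin ligase of the MuRF family, differed by 0.77 ± 0.26 without overlap (limma adjusted p = 0.337) and Bag3, a co-chaperone for filamin turnover, by 0.52 ± 0.17 with overlap (limma adjusted p = 0.322). Sqstm1, an autophagy receptor, differed by 0.64 ± 0.33 with overlap (limma adjusted p = 0.505).

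Of the costamere and integrin genes, 3 of 12 were higher and 0 lower (6.74% and 5.4% of all tested genes), with a median of 0.22. Without knockout M4 or M140, 1 was higher. Tln1, talin, which links integrins to actin, read 2646, 2248 and 2583 on knockout M4, M10 and M140, against 1579, 1985, 1386 and 1566 on M23, M125, M128 and M158 of the wild type. The log2 difference was 0.62 ± 0.14 without overlap, and its limma adjusted p of 0.216 was the smallest of the 60 genes. Des, the desmin of intermediate filaments, differed by 0.90 ± 0.30 (limma adjusted p = 0.327), but its other probe set by -0.02. Parva, a partner of integrin-linked kinase, differed by 0.35 ± 0.12 without overlap (limma adjusted p = 0.357), on a probe set that may also bind related transcripts. Of the load-sensitive transcription factors, 1 of 12 was higher and 1 lower (6.74% and 5.4% of all tested genes), with a median of 0.04. For 0 of them the groups lay apart (5.28% higher and 4.88% lower of all tested genes). These counts are near those shares and are not read as a result about these factors. The higher count was 1 without M10 or M128 and 0 without any other single array; the lower count was 0 to 2. Wwtr1 (TAZ), a partner of TEAD factors, differed by 0.41 ± 0.17 (limma adjusted p = 0.404), with its other probe set at -0.18. Mef2a, a MEF2 factor, differed by -0.53 ± 0.20 (limma adjusted p = 0.371), with its other probe sets at -0.60 to -0.27. Mrtfa, a cofactor of serum response factor, differed by -0.15 ± 0.09 (limma adjusted p = 0.561). It read 589 to 738 over the 7 arrays, close to the array medians of 671 to 699.

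Each gene was centred on its mean over the 7 arrays. For each member, the 3 other genes with the smallest root mean square difference of log2 values were then listed. Values were not scaled, so that this distance depends on the size of the changes as well as on their pattern. The unit is log2, and all genes share the same arrays. For the first Ankrd1 probe set these were Serpina3n, a protease inhibitor of the acute phase, at 0.48, Gpx3, the secreted glutathione peroxidase, at 0.54 and Ccn2, connective tissue growth factor, at 0.56. For Xirp1 they were Prnp, the prion protein, at 0.10, Tgm2, a transglutaminase, at 0.15 and Gars, a tRNA synthetase, at 0.15. Prnp read 18865, 12493 and 16015 on knockout M4, M10 and M140, against 9151, 8749.6, 6896 and 8867 on M23, M125, M128 and M158 of the wild type, so that M10 was its lowest knockout array and M128 its lowest wild-type array, as for Xirp1. For Fhl1 they were Lrp1, an endocytic receptor, at 0.11, Rab31, a vesicle GTPase, at 0.13 and Fn1, fibronectin, at 0.13. For Csrp3 they were Clu at 0.04, itself at the limit on 4 arrays, F11r at 0.05 and Dnttip1 at 0.05, and each of these had its lowest value on wild-type M128. For Fhl2 they were Rbm18, Mgme1 and Fabp4 at 0.03 to 0.04, and for Tcap Ppp2cb, Cbr2 and Prkaca at 0.04 to 0.05. Between members, Fhl2 and Tcap were the closest pair at 0.16 and Ankrd1 and Fhl2 the farthest at 1.17, while Xirp1 was nearest to Fhl1 at 0.33. The SD of the log2 values over the 7 arrays was 0.12 for Fhl2, 0.17 for Tcap and 1.22 for the first Ankrd1 probe set. Members with small changes therefore come out close by this distance, whatever their order of arrays.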

How the data were processed

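Left ventricle RNA of 3 eNOS knockout and 4 wild-type male mice was read on 1-colour MOE430A arrays, 1 per mouse. The deposited table holds intensities of 22690 probe sets on a linear scale, which the authors had brought to nearly the same level on every array, judged from the values. The sources used here do not name software or background correction. Chip lot and hybridization day come from the deposited experiment sheets, per the file headers, which count as other information and hold no measurement. Intensities were not rescaled and were taken as log2(intensity + 16). After removal of 64 control probe sets, those above the 40th percentile of their array on at least 3 arrays were tested (13836 of 22626). Gene names come from a platform table with exactly 1 symbol for 20380 probe sets, several for 691 (not named) and none for 1555. A value within 0.01 of its array's maximum counts as at the upper limit.

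The comparison used limma 3.58.1 in R 4.3.3 (lmFit, then eBayes with an intensity trend, two-sided tests) without covariates, and p-values were adjusted over the tested probe sets by Benjamini-Hochberg at 0.05. The p-values set the group difference against the spread between arrays within the groups, moderated over the tested probe sets. That spread mixes mouse and hybridization day. The procedure was also run on simulated independent normal values, without an upper limit or hybridization days. That run therefore does not cover these features of the data. The members, the companion and marker lists and the genes to name were chosen with earlier results of these data known. Named genes are the members, the 3 most similar genes of each, the 3 with the smallest p of each companion list, and Nos3, Myl7 and Gapdh. Csrp2, Fhl3, Myl2, Myl3, Myh6, Postn, Dcn, Lum, Pdgfra and Vwf were added to these with their values known. So were Col1a1, Col1a2, Col3a1, Tcf21, Ckm, Alas2 and Hbb-b2. Exact permutation tests of members, though planned, are not given, because the members were chosen on this contrast. Alternatives were offsets of 1 and 64, normexp (offset 50) or quantile normalization, the 60th percentile or no filter, array weights, eBayes without trend, hybridization day as a fixed or random block or day 1 alone, Myl7 as a covariate, a threshold of 0.10, the mean over a gene's probe sets, and leaving out single arrays or pairs of arrays.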

Additional observations from a re-analysis of the deposited data

Results flagged for a closer look

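The Csrp3 value of wild-type M128, 29071, stood apart from the other 3 wild-type arrays, which read 43433 to 44145. Its gap to the nearest of them was 0.961 of the range of the group on the log2 scale, above Dixon's critical value for 4 arrays. Those 3 arrays lay within 1.61% to 3.71% of the upper limit, and the part of the limit in this ratio was not tested. Of 25 wild-type sets of values examined in this way it was the only 1, and chance marks about 1 in 20.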

How the results depend on the processing

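The log2 differences of Ankrd1, Xirp1, Csrp3 and Fhl1 stayed above 0 in all alternatives run, and that of Fhl2 stayed below 0. For Ankrd1, Xirp1, Csrp3 and Fhl1 the groups do not overlap. Leaving out arrays or taking day 1 alone could therefore not turn their sign, and the choice of filter does not change the difference. With hybridization day as a fixed block, or within day 1, the values moved by more than 1 SD between replicates to 2.65 and 1.86 for the Ankrd1 probe sets, 1.47 for Xirp1, 0.65 for Csrp3 and 1.0 for Fhl1, and Tcap turned to 0.062. Without wild-type M23 and M158 the second Ankrd1 probe set moved to 1.65. Leaving out 1 array each gave 1.96 to 2.32 and 1.11 to 1.41 for the Ankrd1 probe sets, 0.80 to 1.10 for Xirp1, 0.04 to 0.24 for Csrp3, 0.47 to 0.95 for Fhl1, -0.13 to -0.004 for Fhl2 and -0.20 to -0.04 for Tcap.

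By limma, 0 of 13836 probe sets passed an adjusted p of 0.05. This count was 619 with array weights, 21 at a threshold of 0.10, 2 without M10 and M125, 1 each with the 60th percentile filter, with day as a fixed block and without M23 and M158, and 0 to 74 without 1 array (74 without knockout M10, 27 without knockout M140). The count of member probe sets past 0.05 was 4 with array weights (both Ankrd1 probe sets, Xirp1 and Fhl1) and 0 to 1 without 1 array, the 1 being Fhl1 without knockout M10. The members were chosen on this contrast, so that these counts describe the settings and support nothing about the members. The cause was not tested. For the companion genes, the median ran from 0.10 to 0.17 without 1 array, and the counts at an unadjusted p under 0.05 from 4 to 15 higher and from 0 to 2 lower. No paired analysis was possible because knockout and wild-type mice have no number in common. The upper limit restricts Ankrd1 and Csrp3.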
